A study of Mus musculus with 30 samples.

Results

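Genes of ion channels were described in mouse E14 embryonic stem cells from which cofactors of cohesin had been removed for 24 h. They were chosen by symbol: sodium channel genes named Scn with a number and the letter a, calcium channel genes Cacna1a to Cacna1i, and potassium channel genes named Kcn with letters and a number. The symbols matched 111 of the 55421 genes in the deposited table. Of these, 80 had 10 or more counts in at least 3 of the 30 libraries and are described, and 31 did not. The set is wider than voltage-gated channels: inward rectifier (Kcnj), two-pore (Kcnk) and calcium- or sodium-activated (Kcnn, Kcnt) potassium channels are not opened mainly by voltage, and Kcnab, Kcne, Kcnip and Kcnmb genes encode subunits that form no pore. Scn3a and Cacna1h were proposed for description because they were already known to respond unlike between the lines, so their changes are given as values with no test.

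Each of 5 engineered lines gave 3 libraries without treatment and 3 after it, which makes 10 groups and 30 libraries. Every line carries Tir1, the plant F-box protein that lets auxin destroy a protein fused to an auxin-inducible degron (AID). The TIR1 line (EN148.10) carries nothing else, so its 500 µM auxin tests the drug itself. The PDS5AB line (EN293.1) bears AID on PDS5A and PDS5B, and the WAPL line (CMW184) bears it on WAPL. Both received 500 µM auxin. The PDS5AB-NIPBL line (EN331.2) and the WAPL-NIPBL line (EN382.1) add NIPBL fused to an FKBP degron and RAD21 fused to a HaloTag, and received 500 µM auxin with 500 nM dTAG-13. Each genotype is 1 cell line, so a difference between lines cannot be told apart from a difference between clones. All cells grew in serum with leukemia inhibitory factor, PD0325901 and CHIR-99021. The labels do not say whether the 3 libraries of a group came from separate cultures, so p-values measure the spread between these libraries.

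Voltage-gated channels open when the membrane potential changes and carry the currents behind action potentials and calcium entry in neurons and muscle. A sodium or calcium channel has 1 large pore-forming subunit (alpha or alpha-1) joined by small auxiliary subunits, whereas most potassium channels assemble from several subunits. Undifferentiated stem cells fire no action potentials, and many of these genes stay low until neural or cardiac differentiation. Cohesin, a ring that extrudes chromatin loops, is loaded and driven by NIPBL, released by WAPL and held by PDS5A and PDS5B.

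Total counts ran from 19632704 to 45539021 fragments per library. The pluripotency genes of a list of 12 (such as Pou5f1 and Nanog) were detected in all 10 groups, and their summed level was lowest in auxin-treated PDS5AB libraries (5109.8 to 5673 CPM, counts scaled to library size) and highest in untreated PDS5AB libraries (7776 to 8629 CPM). The degrons act on protein, so transcript counts do not check the depletions. Untreated TIR1 and both PDS5AB groups have library numbers 1 to 21 and all other groups 25 to 45. The labels do not call this a batch, but the auxin effect in TIR1 and the untreated levels of the other 3 lines against TIR1 run across it. So does every difference from the TIR1 effect.

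Promoters of 4 members are shown because those genes moved in the same direction in several lines: Kcnj3 fell in all 4 depletions, Kcnj4 and Kcnh7 rose in 3 and Cacna1b in 2. Each sequence is the 250 bases before the RefSeq start site on GRCm38.p6, 5′ to 3′ on the gene's strand, with CpG dinucleotides in capitals. The Kcnj3 stretch lies at chr2:55435720-55435969, plus strand, the Kcnj4 stretch at chr15:79505242-79505491, minus strand, the Kcnh7 stretch at chr2:63184288-63184537, minus strand and the Cacna1b stretch at chr2:24763153-24763402, minus strand.
Kcnj3: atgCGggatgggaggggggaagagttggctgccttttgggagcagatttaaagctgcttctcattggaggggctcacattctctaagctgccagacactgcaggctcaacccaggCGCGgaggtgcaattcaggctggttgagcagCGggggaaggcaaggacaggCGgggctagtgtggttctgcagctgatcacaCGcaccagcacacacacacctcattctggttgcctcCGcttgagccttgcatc
Kcnj4: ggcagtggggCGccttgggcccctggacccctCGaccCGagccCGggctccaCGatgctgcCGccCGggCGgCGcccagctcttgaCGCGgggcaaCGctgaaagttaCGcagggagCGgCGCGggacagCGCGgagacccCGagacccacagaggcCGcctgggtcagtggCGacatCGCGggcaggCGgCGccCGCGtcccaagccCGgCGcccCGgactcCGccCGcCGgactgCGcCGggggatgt
Kcnh7: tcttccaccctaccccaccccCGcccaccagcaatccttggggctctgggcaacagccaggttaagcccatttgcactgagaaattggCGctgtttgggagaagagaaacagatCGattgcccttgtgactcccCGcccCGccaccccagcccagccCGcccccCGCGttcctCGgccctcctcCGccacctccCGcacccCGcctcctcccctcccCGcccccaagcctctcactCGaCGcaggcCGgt
Cacna1b: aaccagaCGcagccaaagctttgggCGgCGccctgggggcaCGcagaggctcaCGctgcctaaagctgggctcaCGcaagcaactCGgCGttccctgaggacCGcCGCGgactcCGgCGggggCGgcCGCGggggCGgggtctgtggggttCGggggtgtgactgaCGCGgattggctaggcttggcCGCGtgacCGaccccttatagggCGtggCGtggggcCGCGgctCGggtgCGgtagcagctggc

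These stretches hold 7 CpG in Kcnj3, 35 in Kcnj4, 16 in Kcnh7 and 29 in Cacna1b. With the first 50 transcribed bases added, the windows hold 10, 41, 21 and 35. A RefSeq window was found for 81 of the 111 members, 56 of them described. The described members had a median of 11 CpG per window (quartiles 5 and 23.25), against 7 over all 32851 windows (quartiles 3 and 20). RE1, the element bound by the neuronal gene repressor REST, was searched on both strands in its 21-base consensus. It was in none of the 56 windows and in 0.00304% of all windows. Its first 9 letters, TTCAGCACC, which lie within RE1, were in 1 of the 56 (Kcnh6) and in 0.371% of all windows. The core motif of CTCF, in 1 strict form, was in 1 of the 56 (Scn8a) and in 1.28% of all windows.

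Channel transcripts were scarce, and their order in these cells was set by a few genes. Per length, in RPKM (fragments scaled to exon length and library size, averaged over the 10 groups), Kcnk5, an acid-sensitive two-pore background channel, led at 13.9. Cacna1a, the P/Q-type calcium channel of synapses, followed at 3.75, and Kcnj12, a strong inward rectifier, at 3.69. Kcnh3 stood at 3.27, Kcnh2 (the ERG channel that repolarises the heart) at 2.93, Kcnd1 at 2.58, Kcns3 at 2.45, Kcnip3 at 1.81 and Kcnj4 at 1.52 on the same scale. Of the 80 described genes, 31 had 10 counts in every library and 41 had 10 counts in at least 1 library of every group.

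The count rule itself leaned on 1 line. Kcna1 (highest count 29), Kcna6 (32) and Scn10a (22) reached 10 counts in auxin-treated PDS5AB libraries alone, Scn1a (18) in untreated PDS5AB libraries alone, and Kcnma1 and Kcnmb4 in the PDS5AB line alone. Kcna1, Kcna6, Scn10a and Scn1a passed with exactly 3 libraries, and Kcne2 was left out with 2 (highest count 12). A gene that entered through 1 group had to differ there, so the counts over members below describe the set and support nothing. Of the 80, 78 passed the filter of the test, and Kcnc2 and Scn1a did not. A member was called at an adjusted p under 0.05 in edgeR's quasi-likelihood test over 19868 genes. The counts of called members include Scn3a and Cacna1h, whose own calls are not reported.

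After removal of PDS5A and PDS5B, the members that stood higher included Cacna1g, Cacna1b, Kcnj4 and Kcnh7, and those that stood lower Kcnj3 and Kcnt2. In the PDS5AB line 37 of 78 members were called higher and 5 lower, where 25.8% and 20.2% of all genes tested were. The members' median log2 fold change was 0.44, against 0.04 over all genes. Among the 46 members with a mean of at least 20 counts, 21 were higher and 5 lower, with a median of 0.25. That mean is taken over all libraries, auxin-treated PDS5AB included. High values there help a gene into the subset, so it is no separate check of the excess of higher calls. In the WAPL line 18 members were higher and 9 lower (all genes 17% and 15.8%), with a median of 0.30. Of the 46, 13 were higher and 6 lower.

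The combined lines, which also lose NIPBL, had fewer calls. The PDS5AB-NIPBL line had 10 higher and 6 lower (all genes 11.4% and 8.06%, median of the members -0.02). These 16 calls became 10 when the line was fitted alone and 9 without treated replicate 1. The WAPL-NIPBL line had 0 higher and 4 lower (all genes 5.11% and 3.45%, median -0.01), with 14 members at an unadjusted edgeR p under 0.05 and 5 called by DESeq2. The calls included Kcnj3, Kcnj12 and Kcng3. The 4 became 9 (3 higher, 6 lower) with a block for replicate number, under which all genes had 10.8% higher and 10.1% lower, and 2 without treated replicate 3. Auxin alone in the TIR1 line gave 6 higher and 9 lower (all genes 10.4% and 9.59%). That total of 15 fell to 8 without untreated replicate 1 or treated replicate 3, and to 9 without untreated replicate 2. Of the members called in several depletions, Kcnj3 was lower in all 4, and Cacna1g, Kcnh3, Kcnh7, Kcnj4, Kcnj6 and Scn4a were each higher in 3.

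**Figure D1:**
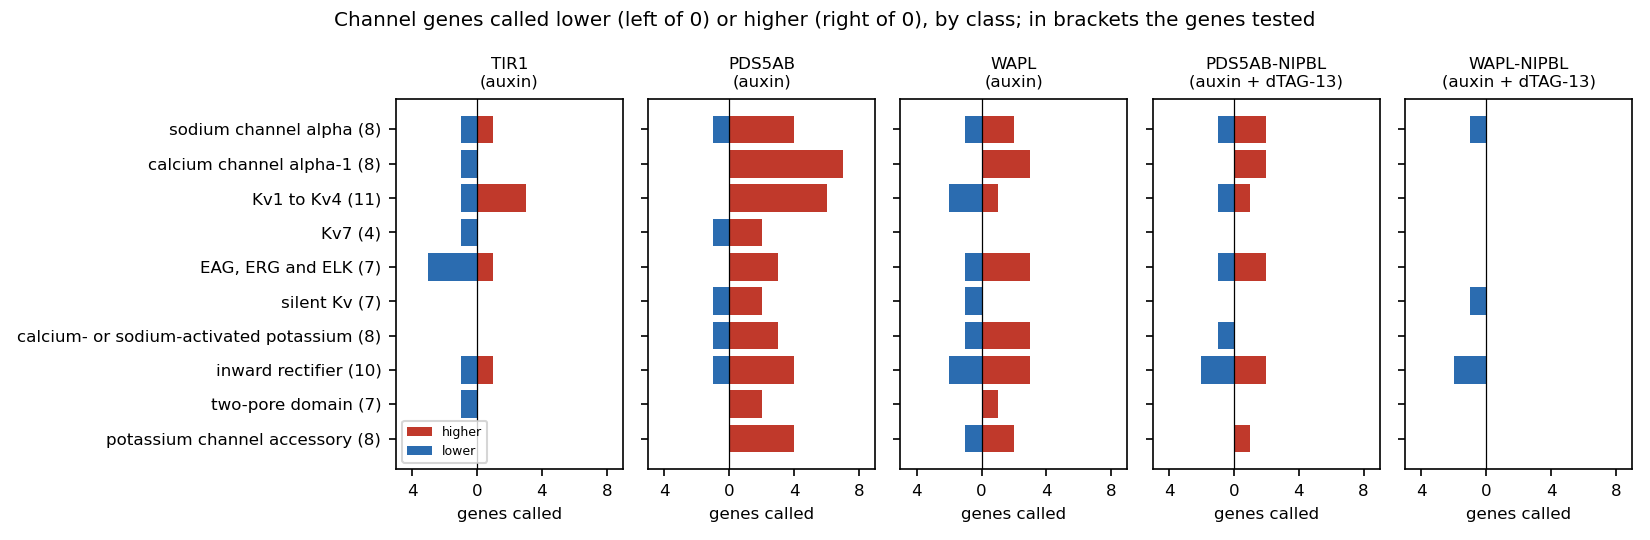
Number of channel genes called higher (red, right of 0) or lower (blue, left of 0) by edgeR in each line's treatment effect, by class, with the genes tested in brackets. All calcium channel genes called in the PDS5AB line lie to the right of 0, and no class has a bar to the right in the WAPL-NIPBL line. The bars include Scn3a, Cacna1h and genes that met the count rule in the PDS5AB line alone.

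Sodium channel alpha subunits carry the upstroke of the action potential. Scn3a, the subunit of the embryonic brain (Nav1.3; ENSMUSG00000057182, chromosome 2, 65457118 to 65567627, minus strand, GRCm38), ran from a mean of 15 CPM in auxin-treated TIR1 cells to 0.204 in treated WAPL-NIPBL cells. In untreated TIR1 cells it stood at 7.61, 8.06 and 9.25 CPM, and after auxin at 15.7, 13.7 and 15.5 CPM. Untreated WAPL cells had 6.02, 6.52 and 7.4 CPM and auxin-treated ones 0.345, 0.352 and 0.454 CPM. Untreated PDS5AB cells had 2.39, 3.47 and 4.08 CPM, and auxin-treated ones 0.821, 0.621 and 1.14 CPM. The treated libraries lay above all untreated ones in TIR1 and below all untreated ones in WAPL and PDS5AB. In the combined lines the untreated level was already low, at 1.18, 1.87 and 1.47 CPM in PDS5AB-NIPBL and 0.711, 0.705 and 1.08 CPM in WAPL-NIPBL. Treatment took it to 0.228, 0.152 and 0.287 CPM and to 0.0433, 0.306 and 0.261 CPM. The log2 fold changes were 0.85 in TIR1, -4.09 in WAPL, -1.95 in PDS5AB, -1.92 in WAPL-NIPBL and -2.69 in PDS5AB-NIPBL. Scn3a shares no exon bases with another gene.

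Scn3a heads a cluster of 5 sodium channel genes on chromosome 2 (65457118 to 66784914). Scn2a, the main subunit of excitatory axons, had means of 0.443 and 0.386 CPM in untreated and treated TIR1 cells, 0.801 and 1.08 in PDS5AB, 0.177 and 0.243 in WAPL, 0.389 and 0.374 in PDS5AB-NIPBL and 0.0507 and 0.118 in WAPL-NIPBL cells, with SDs of 0.0296 to 0.483 (n = 3 in each group). None of its treatment effects was called. Scn1a, the subunit of inhibitory neurons, had at most 18 counts in a library. Its means were 0 and 0.0278 CPM in untreated and treated TIR1 cells, 0.423 and 0.146 in PDS5AB, 0.0628 and 0.0299 in WAPL, 0.184 and 0.0288 in PDS5AB-NIPBL and 0.0392 and 0.0403 in WAPL-NIPBL cells, with SDs of 0 to 0.153. Scn9a, the subunit of pain-sensing neurons, had 0.486 and 0.449 CPM in untreated and treated TIR1 cells, 2.03 and 1.88 in PDS5AB, 0.645 and 0.708 in WAPL, 2.24 and 1.86 in PDS5AB-NIPBL and 0.806 and 0.721 in WAPL-NIPBL cells, with SDs of 0.0422 to 0.702. Its untreated level exceeded that of TIR1 in PDS5AB (log2 2.07, SE 0.346, edgeR adjusted p = 1.87e-05) and in PDS5AB-NIPBL cells (log2 2.22, SE 0.347, edgeR adjusted p = 9.71e-06), and no treatment effect was called. The fifth gene, Scn7a, was below the count rule.

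**Figure D2:**
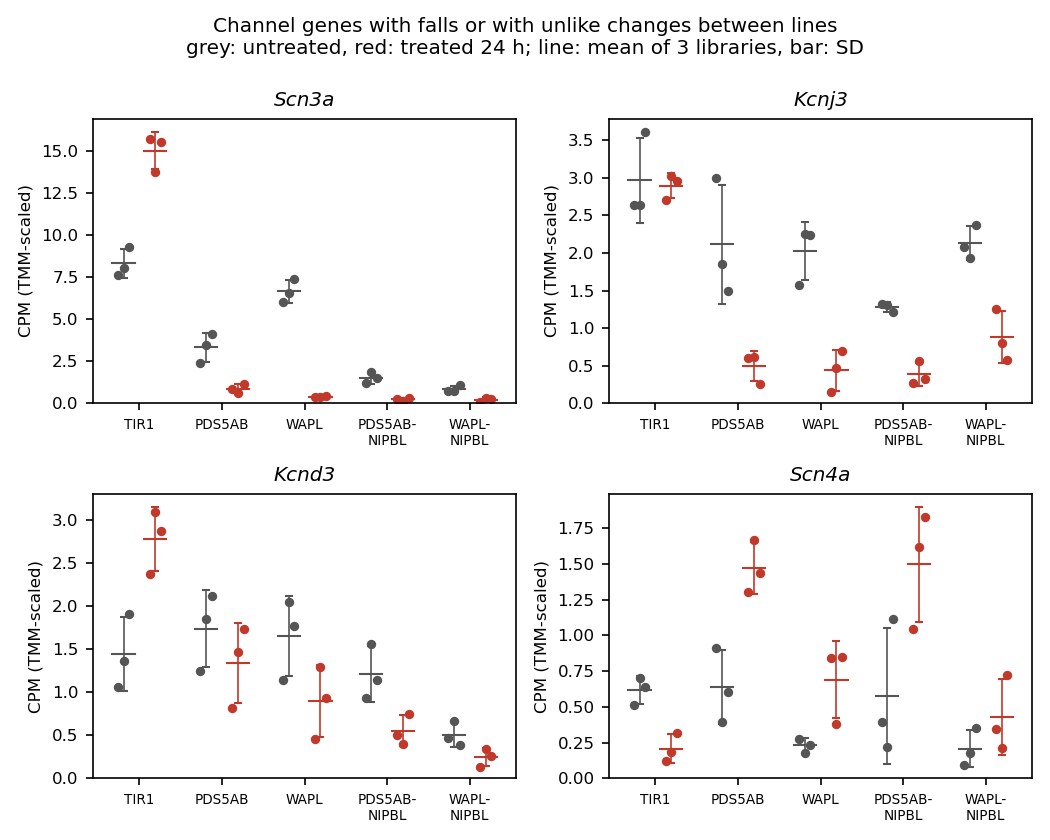
CPM in each library of Scn3a, Kcnj3, Kcnd3 and Scn4a, untreated in grey and treated in red, with the mean of 3 libraries (line) and SD (bar). Scn3a and Kcnd3 stood higher after auxin in TIR1 and lower in the treated WAPL line, Kcnj3 was lower in all 4 depletions, and Scn4a was lower in TIR1 and higher in 3 depletions.

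Scn8a, the subunit of nodes of Ranvier, was the sodium channel gene with the highest counts. Its means were 10.1 and 10.4 CPM in untreated and treated TIR1 cells, 23.8 and 29.2 in PDS5AB, 12.1 and 17.4 in WAPL, 22.4 and 23.1 in PDS5AB-NIPBL and 10.3 and 11.3 in WAPL-NIPBL cells, with SDs of 0.245 to 2.92. It rose in WAPL (log2 0.53, SE 0.12, edgeR adjusted p = 0.000883), from 11.1, 12.1 and 13.1 CPM to 14.6, 18.2 and 19.4 CPM, with no overlap. It also rose in PDS5AB (log2 0.29, edgeR adjusted p = 0.0337), a call lost without untreated replicate 2 or treated replicate 1, 2 or 3 (highest adjusted p 0.166). The level in untreated PDS5AB-NIPBL cells was higher than in untreated TIR1 (log2 1.15, SE 0.122, edgeR adjusted p = 1.45e-08).

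Scn4a, the skeletal muscle subunit, moved down with auxin alone and up in 3 depletions. Auxin took it from 0.514, 0.704 and 0.638 CPM to 0.122, 0.181 and 0.317 CPM in TIR1 (log2 -1.55, SE 0.52, edgeR adjusted p = 0.0337). In PDS5AB it went from 0.91, 0.397 and 0.607 CPM to 1.31, 1.67 and 1.44 CPM (log2 1.20, edgeR adjusted p = 0.016), in WAPL from 0.278, 0.176 and 0.236 CPM to 0.843, 0.381 and 0.847 CPM (log2 1.54, edgeR adjusted p = 0.0224), and in PDS5AB-NIPBL from 0.395, 0.218 and 1.11 CPM to 1.05, 1.62 and 1.83 CPM (log2 1.33, edgeR adjusted p = 0.0262). The groups overlapped in PDS5AB-NIPBL and were separate in the other 3 lines. The TIR1 call was lost without untreated replicate 1, 2 or 3 or treated replicate 1 or 2 (highest adjusted p 0.133), the PDS5AB call lost without untreated replicate 2 or 3 or treated replicate 2 (highest adjusted p 0.0883), the WAPL call lost without untreated replicate 2 or 3 or treated replicate 1 or 3 (highest adjusted p 0.0876) and the PDS5AB-NIPBL call lost without untreated replicate 1 or 2 or treated replicate 2 or 3 (highest adjusted p 0.135). The WAPL-NIPBL line had 0.207 ± 0.13 CPM untreated and 0.429 ± 0.265 treated (SD, n = 3), which was not called.

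Scn10a and Scn11a, both sodium channel genes of sensory neurons, had few counts. Scn10a had means of 0 and 0.00881 CPM in untreated and treated TIR1 cells, 0.0831 and 0.651 in PDS5AB, 0.038 and 0.0522 in WAPL, 0.0145 and 0.0999 in PDS5AB-NIPBL and 0 and 0 in WAPL-NIPBL cells, with SDs of 0 to 0.141. It met the count rule only through auxin-treated PDS5AB libraries, so no test is given for its change there. Scn11a had 0.214 and 0.493 CPM in untreated and treated TIR1 cells, 0.137 and 0.289 in PDS5AB, 0.289 and 0.288 in WAPL, 0.0712 and 0.299 in PDS5AB-NIPBL and 0.157 and 0.133 in WAPL-NIPBL cells, with SDs of 0.0177 to 0.2. Its one call was in PDS5AB-NIPBL (at least 2.67-fold against 3 counts, edgeR adjusted p = 0.0206), lost without untreated replicate 1 or 2 or treated replicate 1 (highest adjusted p 0.103).

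Calcium channel alpha-1 genes stood mostly higher after auxin in PDS5AB. Of the 8 tested, 7 were called higher and none lower, where 25.8% and 20.2% of all genes were. The 8 include Cacna1h, which was proposed because its response was already known, so these counts describe the class and support nothing. In the WAPL line 3 of 8 were higher (all genes 17%), in PDS5AB-NIPBL 2 (all genes 11.4%) and in WAPL-NIPBL none (all genes 5.11%), and in TIR1 1 was lower (all genes 9.59%). These genes are long, with a median span of 230 kb against 16.02 kb for all genes tested. Over all classes, members called higher in PDS5AB had a median span of 56.0 kb and those called lower 110.5 kb. A part of length in the changes was not tested.

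Cacna1g, a low-voltage-activated T-type channel (Cav3.1; ENSMUSG00000020866, chromosome 11, 94408391 to 94474198, minus strand), showed the steepest rise of the family. Untreated TIR1 cells had 0.184, 0.176 and 0.248 CPM and auxin-treated TIR1 cells 0.182, 0.158 and 0.317 CPM. In PDS5AB it rose from 2.12, 2.35 and 2.15 CPM to 13.2, 12.8 and 12.7 CPM (log2 2.55, SE 0.22, edgeR adjusted p = 1.53e-10). In WAPL it rose from 0.185, 0.212 and 0.59 CPM to 1.73, 1.06 and 1.72 CPM (log2 2.22, SE 0.325, edgeR adjusted p = 3.16e-06). Neither pair of groups overlapped. In PDS5AB-NIPBL the change was from 0.646, 0.958 and 0.491 CPM to 1.28, 1.16 and 1.61 CPM (log2 0.99, SE 0.299, edgeR adjusted p = 0.0174), a call lost without untreated replicate 1 or 3 or treated replicate 3 (highest adjusted p 0.118). WAPL-NIPBL cells stood at 0.239 ± 0.0687 and 0.359 ± 0.154 CPM (SD, n = 3), which was not called. The untreated level in PDS5AB was already above that in TIR1 (log2 3.40, SE 0.343, edgeR adjusted p = 3.21e-09), as it was in untreated PDS5AB-NIPBL (log2 1.72, SE 0.41, edgeR adjusted p = 0.00159).

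Cacna1b, the N-type channel of presynaptic terminals (Cav2.2; ENSMUSG00000004113, chromosome 2, 24603887 to 24763152, minus strand), followed a like course. Its libraries were at 3.95, 2.78 and 3.89 CPM in untreated and 14.7, 11.6 and 11.5 CPM in auxin-treated PDS5AB cells (log2 1.83, SE 0.175, edgeR adjusted p = 1.08e-09). WAPL libraries were at 1.2, 1.23 and 1.18 CPM and 2.38, 3.34 and 3.14 CPM (log2 1.30, SE 0.209, edgeR adjusted p = 1.36e-05). The groups did not overlap in either line. In PDS5AB-NIPBL the values were 1.94, 2.09 and 2.36 CPM and 2.69, 2.37 and 2.15 CPM, which was not called. In WAPL-NIPBL they were 0.474, 0.775 and 0.733 CPM and 0.952, 0.858 and 1.16 CPM, higher in all 3 pairs of same-numbered libraries with no overlap, and not called without the replicate block (edgeR adjusted p = 0.219) or with it (0.142). TIR1 libraries held 0.772, 0.44 and 0.319 CPM untreated and 0.365, 0.407 and 0.291 CPM after auxin. Against untreated TIR1, Cacna1b was higher in untreated PDS5AB (log2 2.78, edgeR adjusted p = 1.4e-10), PDS5AB-NIPBL (log2 2.05, edgeR adjusted p = 2.37e-07) and WAPL cells (log2 1.23, edgeR adjusted p = 0.00241).

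Cacna1h, another T-type channel (Cav3.2; ENSMUSG00000024112, chromosome 17, 25374285 to 25433783, minus strand), is given without a test. It stood at 1.54, 0.572 and 1.13 CPM in untreated and 1.82, 1.45 and 0.793 CPM in auxin-treated TIR1 cells. PDS5AB libraries went from 3.03, 2.94 and 4.06 CPM to 11.6, 11.5 and 12.4 CPM, with no overlap. WAPL libraries went from 1.85, 3.88 and 2.2 CPM to 3.03, 5.37 and 4.54 CPM and overlapped. In PDS5AB-NIPBL the values were 2.69, 5.14 and 2.42 CPM and then 2.14, 3.08 and 1.68 CPM, and in WAPL-NIPBL 1.33, 3.81 and 1.89 CPM and then 1.08, 3.06 and 2.03 CPM, overlapping in both. The log2 fold changes were 0.29 in TIR1, 0.72 in WAPL, 1.82 in PDS5AB, -0.18 in WAPL-NIPBL and -0.57 in PDS5AB-NIPBL. Between same-numbered libraries it was higher after treatment in all 3 pairs of WAPL, lower in all 3 of PDS5AB-NIPBL, and higher in 1 and lower in 2 of WAPL-NIPBL. Cacna1h shares 1.62% of its exon bases with Tpsg1.

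**Figure D3:**
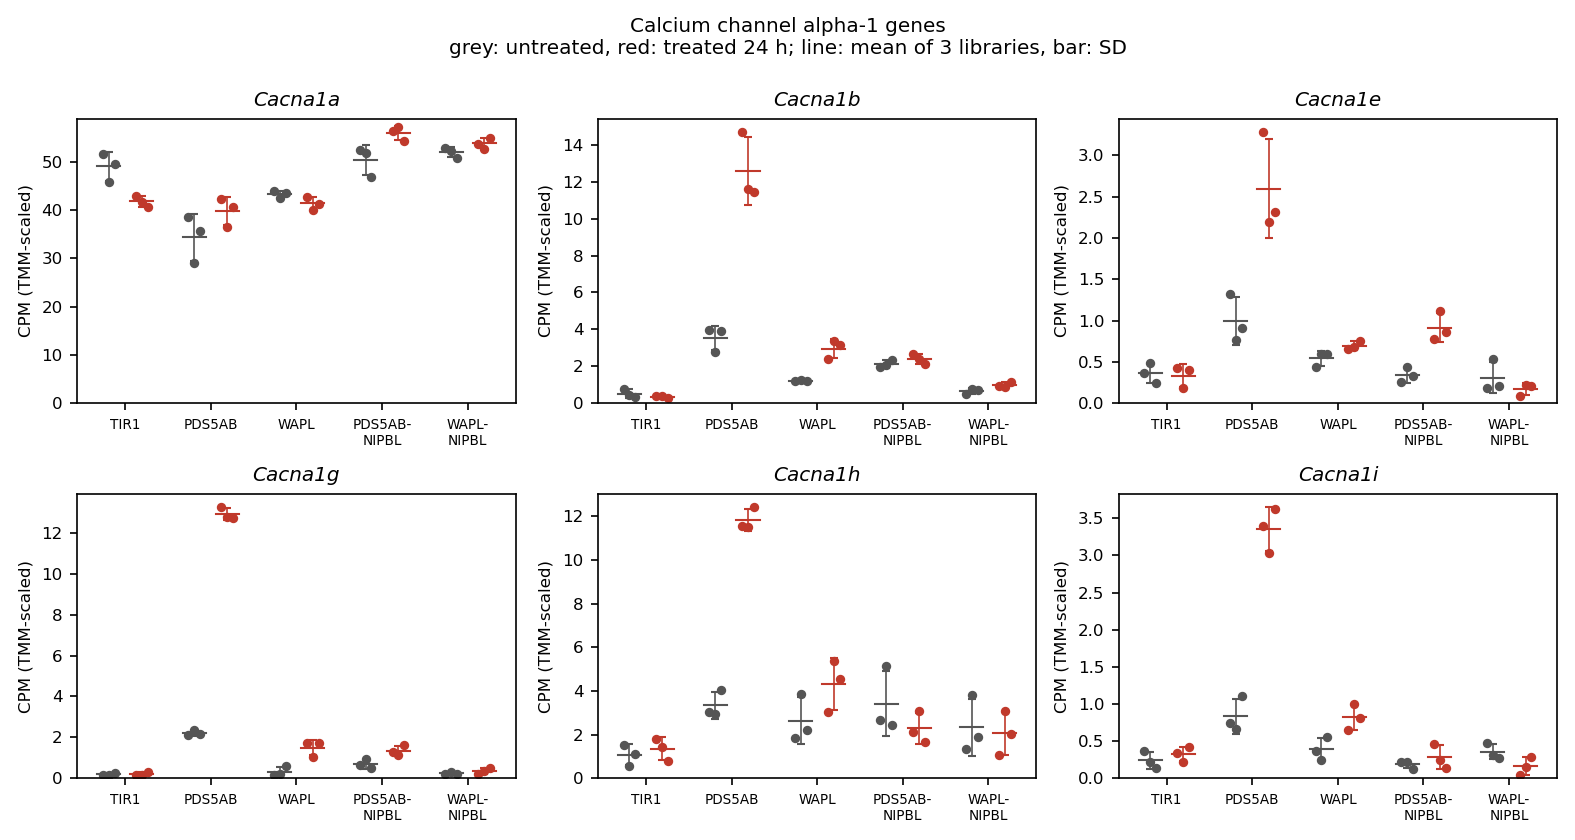
CPM in each library of 6 calcium channel alpha-1 genes, untreated in grey and treated in red, with the mean of 3 libraries (line) and SD (bar). Cacna1b, Cacna1e, Cacna1g, Cacna1h and Cacna1i reach their highest levels in auxin-treated PDS5AB cells, while Cacna1a stays between 34.4 and 56.0 CPM on average in all 10 groups.

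Cacna1i, the third T-type gene (Cav3.3), had means of 0.243 and 0.328 CPM in untreated and treated TIR1 cells, 0.836 and 3.35 in PDS5AB, 0.39 and 0.822 in WAPL, 0.188 and 0.284 in PDS5AB-NIPBL and 0.357 and 0.162 in WAPL-NIPBL cells, with SDs of 0.0493 to 0.296. It rose in PDS5AB (log2 1.99, SE 0.299, edgeR adjusted p = 2.8e-06) and in WAPL (log2 1.10, edgeR adjusted p = 0.0228), the latter call lost without untreated replicate 1 or 2 or treated replicate 2 (highest adjusted p 0.113). Cacna1e, the R-type channel, had 0.367 and 0.334 CPM in untreated and treated TIR1 cells, 0.995 and 2.6 in PDS5AB, 0.541 and 0.694 in WAPL, 0.338 and 0.915 in PDS5AB-NIPBL and 0.309 and 0.168 in WAPL-NIPBL cells, with SDs of 0.0547 to 0.597, and rose in PDS5AB (log2 1.38, SE 0.283, edgeR adjusted p = 0.000181) and in PDS5AB-NIPBL (log2 1.44, SE 0.375, edgeR adjusted p = 0.00613). Cacna1c, the L-type channel of heart and smooth muscle, had 0.523 and 0.559 CPM in untreated and treated TIR1 cells, 1.08 and 2.16 in PDS5AB, 0.766 and 0.908 in WAPL, 0.63 and 0.429 in PDS5AB-NIPBL and 0.395 and 0.343 in WAPL-NIPBL cells, with SDs of 0.0356 to 0.348, and rose in PDS5AB (log2 0.99, edgeR adjusted p = 0.0189), a call lost without untreated replicate 2 or treated replicate 3 (highest adjusted p 0.106). Cacna1d, another L-type gene, had 0.232 and 0.192 CPM in untreated and treated TIR1 cells, 0.659 and 0.969 in PDS5AB, 0.236 and 0.341 in WAPL, 0.19 and 0.11 in PDS5AB-NIPBL and 0.184 and 0.236 in WAPL-NIPBL cells, with SDs of 0.0491 to 0.203 and was called in no treatment effect.

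Cacna1a had the most fragments of the family. Its means were 49.1 and 41.8 CPM in untreated and treated TIR1 cells, 34.4 and 39.8 in PDS5AB, 43.3 and 41.4 in WAPL, 50.4 and 56 in PDS5AB-NIPBL and 52 and 53.8 in WAPL-NIPBL cells, with SDs of 0.741 to 4.87. The fall with auxin in TIR1 (log2 -0.23, edgeR adjusted p = 0.0289) was lost without untreated replicate 1 or 3 or treated replicate 1, 2 or 3 (highest adjusted p 0.196). The rise in PDS5AB (log2 0.21, edgeR adjusted p = 0.0252) was lost without untreated replicate 2 or treated replicate 1 or 3 (highest adjusted p 0.277).

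Among inward rectifiers, Kcnj3 (GIRK1, a G-protein-gated subunit that slows the heart and quiets neurons; ENSMUSG00000026824, chromosome 2, 55435970 to 55598145, plus strand) fell in every depletion. Untreated TIR1 libraries held 2.65, 2.64 and 3.62 CPM and auxin-treated ones 2.71, 3.03 and 2.96 CPM. PDS5AB libraries fell from 3, 1.85 and 1.49 CPM to 0.597, 0.621 and 0.261 CPM (log2 -2.09, SE 0.337, edgeR adjusted p = 7.85e-06). WAPL libraries fell from 1.58, 2.26 and 2.24 CPM to 0.153, 0.469 and 0.695 CPM (log2 -2.14, SE 0.341, edgeR adjusted p = 1.18e-05). PDS5AB-NIPBL libraries fell from 1.33, 1.31 and 1.21 CPM to 0.273, 0.556 and 0.322 CPM (log2 -1.76, SE 0.397, edgeR adjusted p = 0.00165). WAPL-NIPBL libraries fell from 2.08, 1.94 and 2.37 CPM to 1.25, 0.796 and 0.58 CPM (log2 -1.32, SE 0.315, edgeR adjusted p = 0.00603), a call lost without treated replicate 3 (highest adjusted p 0.0656). The groups were separate in all 4 lines. Its partner Kcnj6 (GIRK2) moved the other way. It rose in WAPL (log2 0.81, SE 0.237, edgeR adjusted p = 0.00882), from 0.896, 0.917 and 0.669 CPM to 1.65, 1.41 and 1.33 CPM. It was also called higher in PDS5AB (log2 0.74, edgeR adjusted p = 0.0174), in PDS5AB-NIPBL (log2 0.92, edgeR adjusted p = 0.02) and in TIR1 (log2 0.75, edgeR adjusted p = 0.022). The PDS5AB call was lost without untreated replicate 3 or treated replicate 1 or 2 (highest adjusted p 0.0846), the PDS5AB-NIPBL call lost without untreated replicate 1 or 3 or treated replicate 1 (highest adjusted p 0.113) and the TIR1 call lost without untreated replicate 2 or treated replicate 3 (highest adjusted p 0.0909).

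Kcnj4 (Kir2.3, a strong rectifier of brain and heart; ENSMUSG00000044216, chromosome 15, 79483714 to 79505241, minus strand) rose in 3 depletions. PDS5AB libraries went from 2.66, 3.11 and 2.9 CPM to 7.65, 7.42 and 8.13 CPM (log2 1.42, SE 0.156, edgeR adjusted p = 1.41e-08). WAPL libraries went from 1.95, 2.47 and 2.32 CPM to 3.72, 3.4 and 4.02 CPM (log2 0.73, SE 0.168, edgeR adjusted p = 0.00104), and PDS5AB-NIPBL libraries from 1.79, 2.31 and 1.34 CPM to 4.33, 4.55 and 3.65 CPM (log2 1.21, SE 0.176, edgeR adjusted p = 6.92e-06). None of these groups overlapped. TIR1 libraries held 2.83, 2.38 and 2.13 CPM before and 2.1, 2.28 and 2.06 CPM after auxin, which was not called. WAPL-NIPBL libraries held 2.7, 2.5 and 1.89 CPM and 2.81, 3.55 and 3.08 CPM, higher in all 3 pairs with no overlap. That change was not called without the replicate block (log2 0.43, edgeR adjusted p = 0.127) and was called with it (edgeR adjusted p = 0.0488). Kcnj12 (Kir2.2) fell by a small amount in both combined lines: log2 -0.41, edgeR adjusted p = 0.0109 in PDS5AB-NIPBL and log2 -0.42, edgeR adjusted p = 0.0105 in WAPL-NIPBL. The first call was lost without treated replicate 1 (highest adjusted p 0.0794) and the second lost without treated replicate 2 (highest adjusted p 0.102). Whether these 2 effects differ from those of the single-cofactor lines was tested, and Kcnj12 was called in neither difference. Kcnj10, the glial rectifier, fell in WAPL (log2 -0.87, edgeR adjusted p = 0.00856), a call lost without treated replicate 1 (highest adjusted p 0.0713).

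Of 7 tested genes of the EAG, ERG and ELK group (Kcnh), 3 were called higher and 0 lower in PDS5AB (all genes 25.8% and 20.2%), and 3 higher and 1 lower, Kcnh1, in WAPL (all genes 17% and 15.8%). PDS5AB-NIPBL had 2 and 1 (all genes 11.4% and 8.06%), WAPL-NIPBL 0 and 0 (all genes 5.11% and 3.45%) and TIR1 1 and 3 (all genes 10.4% and 9.59%). The 3 higher in both single-cofactor lines were Kcnh7, Kcnh3 and Kcnh2. Kcnh7 (ERG3; ENSMUSG00000059742, chromosome 2, 62693414 to 63184287, minus strand) went from 2.46, 3.17 and 2.81 CPM to 6.71, 6.93 and 7.25 CPM in PDS5AB (log2 1.30, SE 0.169, edgeR adjusted p = 2.42e-07), and from 3.89, 3.39 and 3.39 CPM to 5.83, 6.66 and 4.63 CPM in WAPL (log2 0.68, SE 0.168, edgeR adjusted p = 0.00208). In PDS5AB-NIPBL it rose from 2.12, 1.09 and 2 CPM to 3.73, 3.64 and 3.47 CPM (log2 1.03, SE 0.193, edgeR adjusted p = 0.000204). WAPL-NIPBL libraries held 2.65, 3.35 and 2.79 CPM and 4.76, 3.8 and 4.15 CPM, a change not called without the replicate block (log2 0.52, edgeR adjusted p = 0.0652) and called with it (edgeR adjusted p = 0.0247). Auxin in TIR1 also raised it (log2 0.58, edgeR adjusted p = 0.0142), a call lost without untreated replicate 2 or treated replicate 3 (highest adjusted p 0.0948). Kcnh7 shares 4.57% of its exon bases with Gca on the other strand, and the counting ignored strand.

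Kcnh3 and Kcnh2 rose in both single-cofactor lines and fell with auxin alone. Kcnh3 (an ELK channel of forebrain) rose in WAPL (log2 0.54, SE 0.126, edgeR adjusted p = 0.00126) and PDS5AB-NIPBL (log2 0.60, SE 0.127, edgeR adjusted p = 0.000766), and in PDS5AB from 9.31, 6.88 and 6.73 CPM to 15.7, 11.9 and 13.2 CPM (log2 0.83, SE 0.135, edgeR adjusted p = 8.14e-06). In TIR1 it fell from 22.6, 16.6 and 17.9 CPM to 14.4, 12.7 and 14.2 CPM (log2 -0.47, edgeR adjusted p = 0.00852), a call lost without untreated replicate 1 or treated replicate 2 (highest adjusted p 0.129). In WAPL-NIPBL its change was not called (log2 0.20, edgeR adjusted p = 0.375). Kcnh2 fell in TIR1 from 17.4, 14.7 and 13.6 CPM to 11.3, 9.54 and 9.12 CPM (log2 -0.61, SE 0.105, edgeR adjusted p = 0.000107) and rose in WAPL from 13.2, 13.6 and 11.5 CPM to 18.8, 18.2 and 17.3 CPM (log2 0.50, SE 0.104, edgeR adjusted p = 0.000323). In PDS5AB it rose from 11.4, 10.1 and 9.27 CPM to 13.7, 12.9 and 14 CPM (log2 0.40, edgeR adjusted p = 0.00254). In PDS5AB-NIPBL (log2 -0.15, edgeR adjusted p = 0.397) and WAPL-NIPBL (log2 -0.10, edgeR adjusted p = 0.664) its change was below 0 and not called. Kcnh6 (ERG2) fell in TIR1 (log2 -1.21, SE 0.225, edgeR adjusted p = 0.00026) and PDS5AB-NIPBL (log2 -1.02, SE 0.206, edgeR adjusted p = 0.000521). It lies within 345 kb of Scn4a on chromosome 11.

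Of the Kv1 to Kv4 genes, which include the delayed rectifiers and A-type channels of neurons, 6 of 11 were higher in PDS5AB and none lower (all genes 25.8% and 20.2%). These 6 include Kcna1 and Kcna6, which met the count rule only through auxin-treated PDS5AB libraries. Kcnd3 (Kv4.3, an A-type channel) rose with auxin in TIR1 from 1.07, 1.36 and 1.91 CPM to 2.37, 3.1 and 2.88 CPM (log2 0.94, SE 0.297, edgeR adjusted p = 0.024), a call lost without untreated replicate 1 or 2 or treated replicate 2 or 3 (highest adjusted p 0.11). It fell in WAPL from 1.14, 2.05 and 1.77 CPM to 0.46, 1.29 and 0.937 CPM (log2 -0.84, edgeR adjusted p = 0.0465), where the groups overlapped, and in PDS5AB-NIPBL from 0.933, 1.57 and 1.15 CPM to 0.501, 0.404 and 0.752 CPM (log2 -1.08, edgeR adjusted p = 0.0442). WAPL-NIPBL libraries held 0.474, 0.67 and 0.384 CPM untreated and 0.13, 0.337 and 0.261 CPM treated, lower with no overlap but not called (edgeR adjusted p = 0.22). The change in PDS5AB was below 0 too and not called (log2 -0.37, edgeR adjusted p = 0.337). The WAPL call was lost without untreated replicate 2 or 3 or treated replicate 1 or 3 (highest adjusted p 0.223) and the PDS5AB-NIPBL call lost without untreated replicate 2 or 3 or treated replicate 1 or 2 (highest adjusted p 0.163). Kcna7 fell in TIR1 (log2 -0.78, edgeR adjusted p = 0.0397), a call lost without untreated replicate 1, 2 or 3 or treated replicate 1 or 3 (highest adjusted p 0.16).

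Kcna2 (Kv1.2, an axonal delayed rectifier) has a mean of 15.9 counts, below the 20 asked of named genes, and was chosen after its values were seen. Auxin in TIR1 took it from 0.147, 0.264 and 0.177 CPM to 0.942, 0.882 and 1.11 CPM (log2 2.32, SE 0.533, edgeR adjusted p = 0.00239). Auxin in WAPL took it from 0.803, 1.69 and 0.669 CPM to 0.153, 0.176 and 0.242 CPM (log2 -2.43, SE 0.52, edgeR adjusted p = 0.000475). Both calls held without any 1 library. PDS5AB cells stood at 0.0907 ± 0.0532 and 0.0808 ± 0.0269 CPM, PDS5AB-NIPBL cells at 0.392 ± 0.384 and 0.402 ± 0.274 and WAPL-NIPBL cells at 1.09 ± 0.417 and 0.915 ± 0.31 (SD, n = 3). The untreated WAPL and WAPL-NIPBL levels were above untreated TIR1 (log2 2.43, edgeR adjusted p = 0.00255 and log2 2.48, edgeR adjusted p = 0.00089), comparisons that run across the library numbers as the TIR1 effect does.

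**Figure D4:**
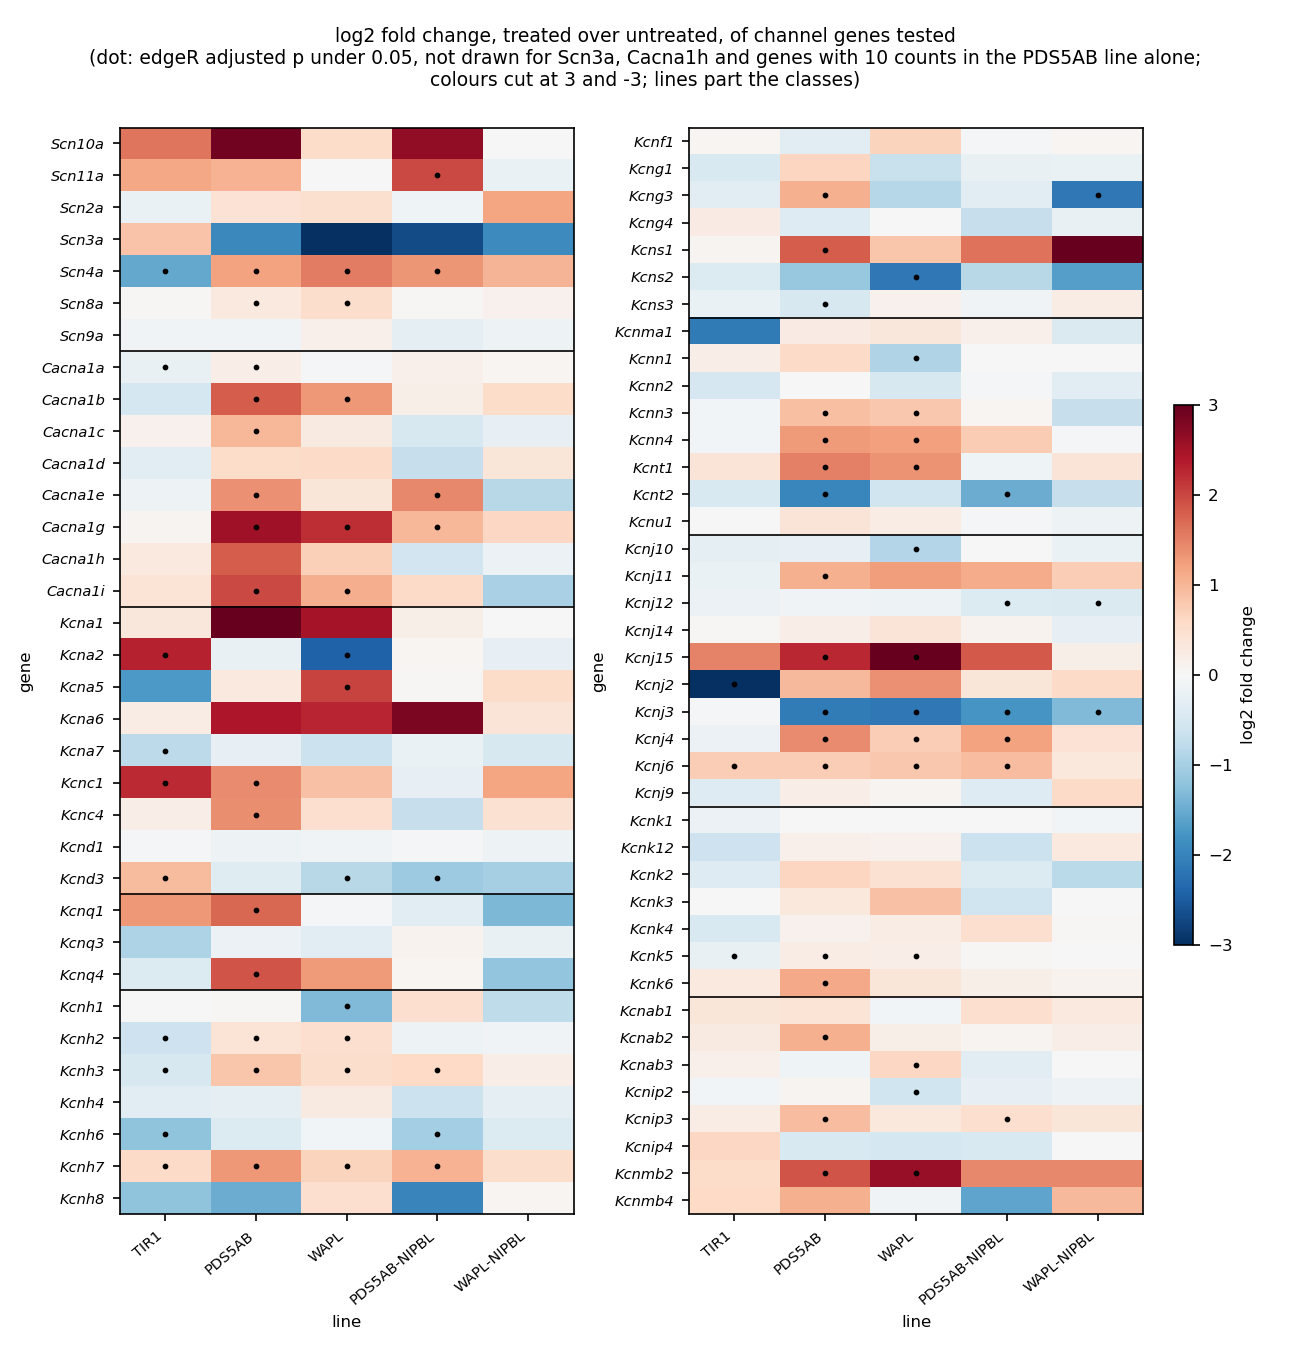
Log2 fold change of treated over untreated cells for channel genes tested, in the 5 lines, with a dot where edgeR called it and lines between classes. The PDS5AB column holds the most dots and the WAPL-NIPBL column the fewest, and the rows of Scn3a and Kcnj3 are blue in all 4 depletion columns. Dots are left out for Scn3a, Cacna1h and the genes that reached 10 counts in the PDS5AB line alone.

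Potassium channels gated by sodium or calcium changed in both directions. Kcnt1, a sodium-activated channel, rose in PDS5AB from 1.15, 0.793 and 1.08 CPM to 2.57, 2.84 and 3.27 CPM (log2 1.52, SE 0.318, edgeR adjusted p = 0.00023) and in WAPL from 0.494, 0.564 and 0.905 CPM to 0.997, 1.56 and 2.36 CPM (log2 1.35, SE 0.351, edgeR adjusted p = 0.00323). Its paralogue Kcnt2 fell in PDS5AB from 0.674, 1.12 and 1.1 CPM to 0.112, 0.163 and 0.457 CPM (log2 -1.95, SE 0.454, edgeR adjusted p = 0.000747) and in PDS5AB-NIPBL (log2 -1.49, edgeR adjusted p = 0.0137), the latter call lost without untreated replicate 2 or 3 or treated replicate 1 or 3 (highest adjusted p 0.0706). Kcnn3, a small-conductance calcium-activated channel, rose in PDS5AB (log2 0.90, SE 0.224, edgeR adjusted p = 0.00141) and in WAPL (log2 0.80, edgeR adjusted p = 0.0206), the latter call lost without untreated replicate 1 or treated replicate 2 (highest adjusted p 0.159). Kcnn1 of the same group fell in WAPL (log2 -0.90, edgeR adjusted p = 0.0181), a call lost without untreated replicate 2 or 3 or treated replicate 1 or 2 (highest adjusted p 0.119).

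Kcns3, a silent subunit that modifies Kv2 channels, fell in PDS5AB (log2 -0.48, SE 0.126, edgeR adjusted p = 0.00227). Among two-pore channels, Kcnk6 rose in PDS5AB from 3.44, 4.07 and 4.08 CPM to 7.72, 8.1 and 9.6 CPM (log2 1.13, SE 0.136, edgeR adjusted p = 6.86e-08). Kcnk5, the member with the highest level, moved little: log2 -0.22, edgeR adjusted p = 0.0345 in TIR1, log2 0.21, edgeR adjusted p = 0.0195 in PDS5AB and log2 0.20, edgeR adjusted p = 0.042 in WAPL. The TIR1 call was lost without untreated replicate 1 or 2 or treated replicate 2 or 3 (highest adjusted p 0.193), the PDS5AB call lost without untreated replicate 1 or 3 or treated replicate 2 (highest adjusted p 0.0897) and the WAPL call lost without untreated replicate 2 or 3 or treated replicate 1 (highest adjusted p 0.135).

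Of the accessory subunits, Kcnip3 (a calcium-binding partner of Kv4 channels, also known as DREAM) rose in PDS5AB (log2 0.92, SE 0.146, edgeR adjusted p = 6.24e-06) and in PDS5AB-NIPBL (log2 0.50, edgeR adjusted p = 0.0183), the latter call lost without untreated replicate 2 or treated replicate 1 (highest adjusted p 0.139). Kcnab2, a beta subunit of Kv1 channels, rose in PDS5AB (log2 1.07, SE 0.22, edgeR adjusted p = 0.000185). Kcnab3 rose in WAPL (log2 0.63, edgeR adjusted p = 0.0361), a call lost without untreated replicate 1 or 3 or treated replicate 1 or 3 (highest adjusted p 0.153). Kcnip2, the cardiac partner of Kv4 channels, fell in WAPL (log2 -0.59, edgeR adjusted p = 0.0153), a call lost without untreated replicate 1 or 2 or treated replicate 2 or 3 (highest adjusted p 0.0856).

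The untreated lines differed from each other before any treatment. Untreated PDS5AB cells, whose libraries are numbered with those of untreated TIR1, had 27 members higher and 9 lower than untreated TIR1 (all genes 15.5% and 16.5%), with a median log2 of 0.38. Among the 46 with a mean of at least 20 counts, 16 were higher and 9 lower, and the median was -0.16. The PDS5AB libraries enter that mean as well. Kcnt1 (log2 1.84, edgeR adjusted p = 0.00105) and Cacna1i (log2 1.78, edgeR adjusted p = 0.000988) were higher there, as were Cacna1g, Cacna1b and Scn9a above. Kcnh3 (log2 -1.32, edgeR adjusted p = 3.33e-09), Kcnj10 (log2 -1.57, edgeR adjusted p = 1.34e-05) and Kcnj12 (log2 -0.82, edgeR adjusted p = 2.22e-07) were lower. So was Kcnn1 (log2 -0.90, edgeR adjusted p = 0.0138), a call lost without untreated PDS5AB replicate 3 or untreated TIR1 replicate 3 (highest adjusted p 0.112).

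The other 3 baselines run across the library numbers. Untreated WAPL cells had 4 members higher and 6 lower (all genes 6.62% and 7.39%), a total of 10 that fell to 6 without untreated WAPL replicate 2. Those higher included Kcnk1, Kcna2 and Cacna1b. Kcnk1, a two-pore channel, stood above TIR1 (log2 1.28, edgeR adjusted p = 3.49e-05) and Kcnj12 lower (log2 -0.55, edgeR adjusted p = 0.000433). Kcnk6 (log2 -0.46, edgeR adjusted p = 0.03) and Kcnf1 (log2 -0.91, edgeR adjusted p = 0.0481) were called lower. The Kcnk6 call was lost without untreated TIR1 replicate 1 or 3 or untreated WAPL replicate 1 or 3 (highest adjusted p 0.104) and the Kcnf1 call lost without untreated TIR1 replicate 2 or 3 or untreated WAPL replicate 1, 2 or 3 (highest adjusted p 0.309). Untreated PDS5AB-NIPBL cells had 13 higher and 15 lower (all genes 16.5% and 17.8%). Kcnab3 was higher (log2 1.15, edgeR adjusted p = 0.000537), and Kcnj10 (log2 -1.29, edgeR adjusted p = 0.000221), Kcnj3 (log2 -1.21, edgeR adjusted p = 0.00178), Kcnj12 (log2 -1.16, edgeR adjusted p = 8.55e-10) and Kcnab2 (log2 -1.06, edgeR adjusted p = 0.00168) were lower.

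Untreated WAPL-NIPBL cells had 6 members higher and 13 lower than untreated TIR1 (all genes 13.4% and 14.6%), a total of 19 that fell to 12 without untreated WAPL-NIPBL replicate 2. Kcnk1 was higher (log2 1.32, edgeR adjusted p = 8.57e-06), and Kcnd3 (log2 -1.50, edgeR adjusted p = 0.00299), Kcna7 (log2 -1.38, edgeR adjusted p = 0.000827) and Kcnj12 (log2 -0.75, edgeR adjusted p = 2.65e-06) were lower. Kcnh2 (log2 0.37, edgeR adjusted p = 0.00785) and Kcnh3 (log2 0.33, edgeR adjusted p = 0.0464) were called higher and Kcnt2 (log2 -1.24, edgeR adjusted p = 0.0235) lower. Of these, Kcnh2 was lost without untreated TIR1 replicate 3 (highest adjusted p 0.0633), Kcnh3 lost without untreated TIR1 replicate 2 or 3 or untreated WAPL-NIPBL replicate 1, 2 or 3 (highest adjusted p 0.225), and Kcnt2 lost without untreated TIR1 replicate 2 or 3 or untreated WAPL-NIPBL replicate 1 or 3 (highest adjusted p 0.113). Kcnj12 was thus called lower than in untreated TIR1 in all 4 other lines.

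Differences between treatment effects were tested directly, since a call in one line and none in another shows no difference. The effects of the 4 degron lines are all set against the same TIR1 libraries, so these comparisons share them. Through the TIR1 effect they also run across the library numbers, which the effect within each degron line does not. The PDS5AB effect exceeded the TIR1 effect in 21 members and was below it in 4 (all genes 13.9% and 12.4%). That total of 25 fell to 13 without untreated TIR1 replicate 1, and to 16 without treated TIR1 replicate 2 or treated PDS5AB replicate 1. Cacna1b (log2 2.34, SE 0.367, edgeR adjusted p = 2.01e-05), Cacna1g (log2 2.46, SE 0.561, edgeR adjusted p = 0.0015) and Kcnj4 (log2 1.60, SE 0.233, edgeR adjusted p = 7.29e-06) stood above, and Kcnj3 below (log2 -2.05, SE 0.432, edgeR adjusted p = 0.000666), as were Kcnd3 and Kcnip4. The WAPL effect exceeded it in 10 members and was below in 7 (all genes 9.86% and 10.9%). Kcnh2 (log2 1.11, SE 0.148, edgeR adjusted p = 1.91e-06), Kcnh3 (log2 1.01, SE 0.179, edgeR adjusted p = 0.000113), Kcnh6 (log2 1.12, SE 0.307, edgeR adjusted p = 0.00827) and Cacna1b (log2 1.81, SE 0.383, edgeR adjusted p = 0.00081) stood above, and Kcnj3 (log2 -2.10, SE 0.434, edgeR adjusted p = 0.000652) and Kcnd3 (log2 -1.78, SE 0.441, edgeR adjusted p = 0.00377) below.

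For the combined lines the same test called fewer members. The PDS5AB-NIPBL effect stood above the TIR1 effect in 5 and below it in 3 (all genes 5.28% and 4.81%), or in 8 and 5 with the replicate block (all genes 12% and 13.1%). Those above were Kcnj4, Kcnh3, Kcnh2, Cacna1a and Scn4a, and those below included Kcnd3 and Kcnj3. Kcnj4 (log2 1.40, SE 0.247, edgeR adjusted p = 0.000331) and Kcnh3 (log2 1.07, SE 0.179, edgeR adjusted p = 0.000163) stood above and Kcnd3 below (log2 -2.02, SE 0.483, edgeR adjusted p = 0.0063). The WAPL-NIPBL effect stood above in 3 and below in 3 (all genes 3.1% and 3.94%), or in 7 and 4 with the block (all genes 10.1% and 12.2%). Those above were Kcnh2, Kcnh3 and Scn4a, and those below included Kcna2 and Kcnd3. The total of 6 fell to 1 without untreated TIR1 replicate 1 or untreated WAPL-NIPBL replicate 2, and to 2 without treated TIR1 replicate 2 or treated WAPL-NIPBL replicate 3.

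Cacna1b and Cacna1g rose less in PDS5AB-NIPBL than in PDS5AB. The PDS5AB-NIPBL effect was called below the PDS5AB effect in 6 members and above it in 0 (all genes 4.48% and 4.97%), with 19 members at an unadjusted edgeR p under 0.05 and 6 called by DESeq2. The replicate block called 11, all below, where it called 11.4% of all genes below and 13% above. Cacna1b (log2 -1.66, SE 0.27, edgeR adjusted p = 0.000177) and Kcnk6 (log2 -0.95, SE 0.2, edgeR adjusted p = 0.00238) stood below in every fit that left out a library. Cacna1g also stood below (log2 -1.55, SE 0.377, edgeR adjusted p = 0.00755), a call lost without untreated PDS5AB-NIPBL replicate 2 (highest adjusted p 0.0554). The corresponding call for Kcnh2 (log2 -0.55, edgeR adjusted p = 0.0198) was lost without untreated PDS5AB replicate 3 or treated PDS5AB replicate 3 or untreated PDS5AB-NIPBL replicate 1 or treated PDS5AB-NIPBL replicate 1 (highest adjusted p 0.0781). For Cacna1h the 2 effects were log2 1.82 and -0.57. Kcnj3 and Kcnt2 fell in both lines, and neither was called in the difference.

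Between WAPL-NIPBL and WAPL the effect was called below in 3 members and above in 1 (all genes 2.16% and 3.03%), or in 8 and 3 with the block (all genes 6.7% and 8.75%). The total of 4 was 2 when these lines were fitted alone. It was also 2 without untreated or treated WAPL-NIPBL replicate 1, treated WAPL-NIPBL replicate 3, or treated WAPL replicate 2 or 3, and 1 without treated WAPL-NIPBL replicate 2. Kcnh2 stood below (log2 -0.60, SE 0.145, edgeR adjusted p = 0.0114). Cacna1i (log2 -2.08, edgeR adjusted p = 0.0443) and Kcnn3 (log2 -1.50, edgeR adjusted p = 0.0339) were called below too. The Cacna1i call was lost without untreated WAPL replicate 1 or 2 or treated WAPL replicate 2 or 3 or untreated WAPL-NIPBL replicate 1, 2 or 3 or treated WAPL-NIPBL replicate 1 or 2 (highest adjusted p 0.132) and the Kcnn3 call lost without untreated WAPL replicate 1 or treated WAPL replicate 2 or 3 or untreated WAPL-NIPBL replicate 1 or treated WAPL-NIPBL replicate 1, 2 or 3 (highest adjusted p 0.111). For Scn3a, given with no test, the effects were log2 -4.09 in WAPL and -1.92 in WAPL-NIPBL, from untreated means of 6.65 and 0.833 CPM.

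**Figure D5:**
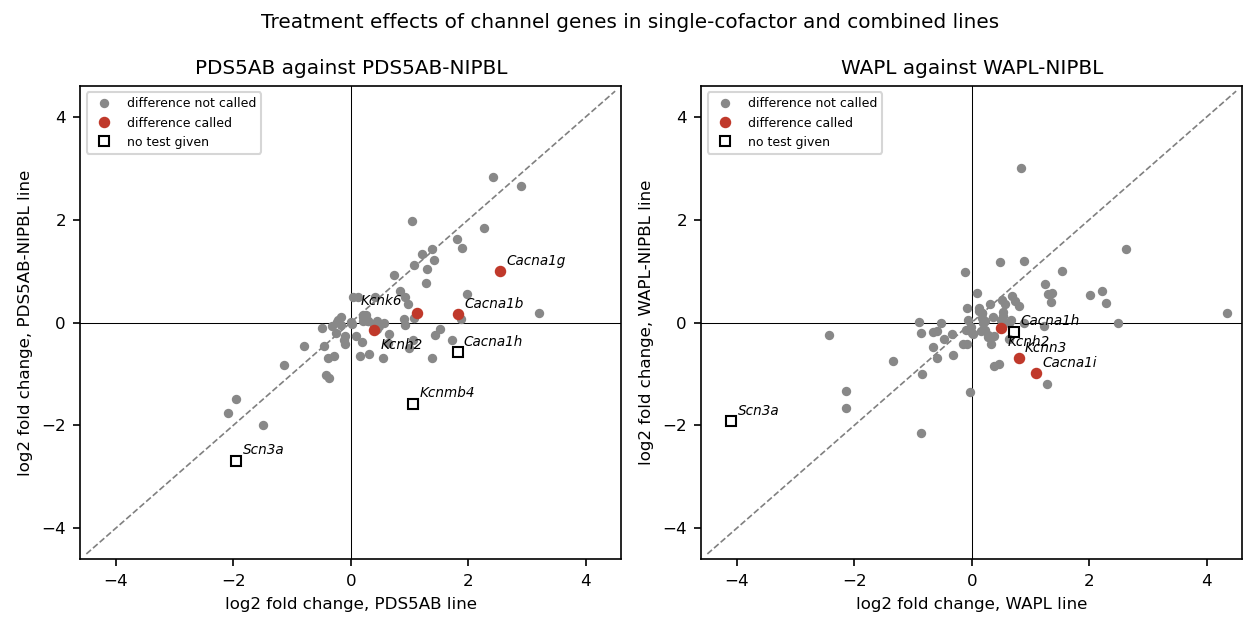
Log2 fold change of each channel gene in the single-cofactor line (x axis) and in the line that also loses NIPBL (y axis), for PDS5AB on the left and WAPL on the right, with the line of equal effects dashed. Called differences are in red, and Cacna1b, Cacna1g and Kcnk6 lie below the dashed line on the left. Scn3a, Cacna1h and, in the left panel, Kcnmb4, which reached 10 counts in the PDS5AB line alone, are open squares without a test.

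The 2 single-cofactor effects were set against each other as well. The PDS5AB effect was above the WAPL effect in 6 members and below it in 1 (all genes 7.38% and 5.11%), or in 13 and 2 with the block (all genes 14.3% and 13%). Its total of 7 fell to 3 without untreated PDS5AB replicate 2 or 3 or untreated WAPL replicate 2, and to 4 without treated PDS5AB replicate 1. Kcnk6 stood above in every such fit (log2 0.77, SE 0.198, edgeR adjusted p = 0.00819). Kcnn1 (log2 1.47, edgeR adjusted p = 0.0152) was above and Kcns3 (log2 -0.61, edgeR adjusted p = 0.0203) below. The Kcnn1 call was lost without untreated PDS5AB replicate 3 or treated PDS5AB replicate 3 or untreated WAPL replicate 2 (highest adjusted p 0.0629) and the Kcns3 call lost without untreated PDS5AB replicate 2 or treated PDS5AB replicate 2 (highest adjusted p 0.0675). For Cacna1g the effects of log2 2.55 and 2.22 differed by 0.33 (SE 0.431), which was not called.

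Genes of the subunits and channels that work with these pores were taken from a list of 48, of which 36 were tested. The median log2 fold changes over all genes were 0.04 in PDS5AB and 0.00 in WAPL. In PDS5AB 18 of the list (all genes 25.8%) were called higher and 2 lower (all genes 20.2%, median of the list log2 0.57), and in WAPL 13 and 4 (all genes 17% and 15.8%, median of the list 0.29). PDS5AB-NIPBL had 6 and 4 (all genes 11.4% and 8.06%), WAPL-NIPBL 2 and 0 (all genes 5.11% and 3.45%), and TIR1 3 and 5 (all genes 10.4% and 9.59%). The sodium channel beta subunit Scn4b rose in PDS5AB (log2 2.09, edgeR adjusted p = 5.53e-07) and PDS5AB-NIPBL (log2 1.92, edgeR adjusted p = 1.35e-05). Cacna2d1, the alpha-2-delta subunit of calcium channels, rose in PDS5AB (log2 1.27, edgeR adjusted p = 1.64e-06) and WAPL (log2 1.58, edgeR adjusted p = 2.02e-06), and Cacng5 in PDS5AB (log2 1.80, edgeR adjusted p = 1.43e-07) and with auxin in TIR1 (log2 0.87, edgeR adjusted p = 0.00204). Hcn4, the cardiac pacemaker channel, rose in PDS5AB (log2 1.64, edgeR adjusted p = 2.73e-06) and PDS5AB-NIPBL (log2 1.34, edgeR adjusted p = 0.00507), and in WAPL (log2 0.90, edgeR adjusted p = 0.0139) where the call was lost in 2 leave-one-out fits. Dpp6, a partner of Kv4 channels, rose in TIR1 (log2 0.76, edgeR adjusted p = 0.00259) and fell in PDS5AB (log2 -0.66, edgeR adjusted p = 0.00918), WAPL (log2 -0.72, edgeR adjusted p = 0.00224) and PDS5AB-NIPBL (log2 -0.95, edgeR adjusted p = 0.000477). Unc79, a subunit of the sodium leak channel complex, rose in WAPL (log2 1.26, edgeR adjusted p = 0.00244), Fgf13, which binds sodium channels, in PDS5AB-NIPBL (log2 1.01, edgeR adjusted p = 0.00448) and Ank3, the scaffold of the axon initial segment, in TIR1 (log2 0.79, edgeR adjusted p = 9.42e-06). Of the Cacng genes, Cacng4 fell in PDS5AB-NIPBL (log2 -1.15, edgeR adjusted p = 0.000108), and Cacng7 (log2 -0.84, edgeR adjusted p = 0.000342) and Cacng8 (log2 -0.66, edgeR adjusted p = 0.00297) in TIR1.

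Other calls of that list were lost in some leave-one-out fits. Cacng6 in TIR1 (log2 -0.76, edgeR adjusted p = 0.0215) was lost in 2 and Cacng7 in WAPL (log2 -0.62, edgeR adjusted p = 0.00375) in 1. Scn2b was lower in PDS5AB (log2 -0.42, edgeR adjusted p = 0.025) and WAPL (log2 -0.44, edgeR adjusted p = 0.0291), lost in 3 and 3. Fgf11 was lower in PDS5AB-NIPBL (log2 -0.52, edgeR adjusted p = 0.0048), lost in 1. In WAPL-NIPBL, Cacng5 (log2 0.62, edgeR adjusted p = 0.047) and Cacnb3 (log2 0.42, edgeR adjusted p = 0.0114) were higher, lost in 5 and 2.

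Markers of cell states were read beside these results. Of 12 pluripotency genes, 9 were called lower in WAPL, 11 in PDS5AB, 7 in WAPL-NIPBL and 8 in PDS5AB-NIPBL, and none higher in these 4, where 15.8%, 20.2%, 3.45% and 8.06% of all genes were lower. Auxin alone in TIR1 had 3 of them higher and 4 lower (all genes 10.4% and 9.59%). The 8 markers of two-cell-like cells, such as Zscan4c, summed to 1.98 to 3.26 CPM in untreated TIR1, 25.8 to 36.6 in untreated PDS5AB, 60.1 to 80.2 in auxin-treated PDS5AB and 10.1 to 13.4 CPM in auxin-treated WAPL libraries. In the combined lines they summed to at most 1.16 CPM, with Tcstv1 and Tcstv3 at 0 counts in all 4 groups. Of the 7 tested, 6 were higher in PDS5AB (all genes 25.8%) and 6 in WAPL (all genes 17%). The 13 neuronal markers summed to 363 to 400.1 CPM in untreated and 288 to 327 in auxin-treated PDS5AB libraries, and to 432 to 489 and 347 to 377 in WAPL. They also summed to less after treatment in TIR1 (499 to 563 and 411 to 413 CPM), WAPL-NIPBL (484 to 555 and 410.5 to 439 CPM) and PDS5AB-NIPBL (532 to 556 and 422 to 483 CPM). Stmn2 held the largest part of these sums (means of 257 and 199 CPM in PDS5AB, 264 and 176 in WAPL). Map2 was higher on average after auxin in both (4.40 and 6.14, 3.81 and 4.52 CPM). The list's median log2 fold change was -0.18 in PDS5AB and 0.18 in WAPL. Of the 12 tested, 0 were higher and 4 lower in TIR1 (all genes 10.4% and 9.59%), 2 were higher and 2 lower in PDS5AB (all genes 25.8% and 20.2%), and 2 higher and 1 lower in WAPL (all genes 17% and 15.8%). PDS5AB-NIPBL had 0 and 4 (all genes 11.4% and 8.06%) and WAPL-NIPBL 1 and 2 (all genes 5.11% and 3.45%). The part of these shifts in the channel results was not tested. Fewer cells of a type and less RNA per cell cannot be told apart in bulk RNA.

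Markers of other lineages moved in both directions, beside all-gene shares of 25.8% higher and 20.2% lower in PDS5AB and 17% and 15.8% in WAPL. Higher and lower calls in PDS5AB and WAPL were 4 and 1, then 2 and 1, of 8 neural progenitor genes tested. For 10 muscle genes tested they were 5 and 2, then 3 and 2. For 8 mesoderm genes they were 2 and 2, then 3 and 1. For 8 endoderm genes they were 4 and 1, then 5 and 1, and for 7 trophoblast genes 2 and 1, then 2 and 2. Of 12 genes of the REST repressor complex, which silences channel genes outside neurons, 2 were higher and 6 lower in PDS5AB, 1 and 5 in WAPL, and 0 and 3 in each combined line (all genes 11.4% and 8.06% in PDS5AB-NIPBL and 5.11% and 3.45% in WAPL-NIPBL). Their part in the channel results was not tested either.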

How the data were processed

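RNA was measured by stranded polyA RNA-seq in 30 libraries. The deposited values are raw counts of fragments per gene and the exon length of each gene. Per the file headers, the authors counted them with featureCounts 2.0.1 in paired-end mode against GENCODE vM23 (GRCm38), with no strand option and no option for multi-mapping or overlapping fragments, so fragments shared between genes were dropped and antisense partners cannot be told apart. Per the submitters' processing notes, cutadapt, STAR 2.7.7a and deepTools were used, with the builds mm10 and GRCm38.p6. Symbols were found for 55154 of 55421 identifiers (99.5%).

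From the counts, edgeR 4.0.16 (R 4.3.3) was run with TMM scaling (factors 0.950 to 1.13), filterByExpr with a minimum count of 10, group means for all 30 libraries, quasi-likelihood F tests and Benjamini-Hochberg adjustment over 19868 genes. CPM use the TMM-scaled totals. RPKM were computed here from the exon lengths. A fold against a group at 3 counts or fewer in every library was set against 3 counts. Promoter windows (250 bases before to 50 after the start) came from RefSeq on GRCm38.p6. The code was tested on simulated data.

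Alternatives were DESeq2 1.42.0, its size factors in edgeR, no filter, the compared groups alone, a replicate block and leaving out each library. Same-numbered libraries deviated together in the 4 degron lines (lowest correlation 0.207 in WAPL, 0.109 in PDS5AB, 0.186 in WAPL-NIPBL and 0.163 in PDS5AB-NIPBL), so their numbers, taken from the labels, were read as pairs. In TIR1 (-0.01 to 0.06) and across lines they were not read as pairs. Same-numbered untreated TIR1 and PDS5AB libraries did correlate at 0.07 to 0.21, however.

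Members and lists were chosen with earlier results of these data known. Described Scn and Cacna1 genes were named, and of the others with a mean of at least 20 counts up to 12 calls per direction and treatment effect, and 5 per baseline or difference, by absolute log2 fold change. Some genes that this rule covers are counted but not reported here.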

Additional observations from a re-analysis of the deposited data

Results flagged for a closer look

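Some of the members whose treatment effect differed between 2 lines by edgeR's test of the difference itself (adjusted p under 0.05) are given here with the log2 difference. They reach the mean count asked of named genes and, where many were called, have the largest absolute differences. Other called members, such as Scn4a and Kcna2, are counted in the Results and not listed here. Calls that were lost when some library was left out are named as such.

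The PDS5AB effect stood above the TIR1 effect for Cacna1g (2.46), Cacna1b (2.34), Kcnj4 (1.60), Cacna1i (1.58) and Cacna1e (1.52). It stood below for Kcnj3 (-2.05), Kcnd3 (-1.31) and Kcnip4 (-1.08), with Cacna1i, Cacna1e, Kcnd3 and Kcnip4 lost without some library. The WAPL effect stood above for Cacna1g (2.13), Cacna1b (1.81), Kcnh6 (1.12), Kcnh2 (1.11) and Kcnh3 (1.01). It stood below for Kcnj3 (-2.10), Kcnd3 (-1.78), Kcnip4 (-1.15) and Kcnn1 (-1.10), with Cacna1g, Kcnip4 and Kcnn1 lost without some library.

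The PDS5AB-NIPBL effect stood above the TIR1 effect for Kcnj4 (1.40), Kcnh3 (1.07), Kcnh2 (0.46) and Cacna1a (0.38) and below it for Kcnd3 (-2.02) and Kcnj3 (-1.72), with Kcnh2, Cacna1a and Kcnj3 lost without some library. The WAPL-NIPBL effect stood above for Kcnh3 (0.67) and Kcnh2 (0.51) and below for Kcnd3 (-1.94), each lost without some library. These 4 comparisons share the TIR1 libraries and, through the TIR1 effect, run across the library numbers.

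The PDS5AB effect stood above the WAPL effect for Kcnn1 (1.47), Kcng1 (1.32), Kcnk6 (0.77) and Kcnj4 (0.69) and below it for Kcns3 (-0.61), with all but Kcnk6 lost without some library. The PDS5AB-NIPBL effect stood below the PDS5AB effect for Cacna1b (-1.66), Cacna1g (-1.55), Kcnk6 (-0.95) and Kcnh2 (-0.55), with Cacna1g and Kcnh2 lost without some library. The WAPL-NIPBL effect stood below the WAPL effect for Cacna1i (-2.08), Kcnn3 (-1.50) and Kcnh2 (-0.60), with Cacna1i and Kcnn3 lost without some library.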

How the results depend on the processing

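All 1647 values of the 129 named member and comparison pairs under the alternatives kept their direction, and 75 pairs were called in every one of them. The pairs were chosen by their calls in the main fit and the alternatives reuse its libraries, so the kept direction is little check. The replicate block moved the number of members called from 4 to 9 in the WAPL-NIPBL effect, from 8 to 13 for PDS5AB-NIPBL against TIR1, from 6 to 11 for WAPL-NIPBL against TIR1, from 7 to 15 for PDS5AB against WAPL, from 6 to 11 for PDS5AB-NIPBL against PDS5AB and from 4 to 11 for WAPL-NIPBL against WAPL, and no call was lost under it. Calls over all genes rose with it as well, from 1016 higher and 686 lower to 2147 and 2005 in the WAPL-NIPBL effect and from 602 and 430 to 1739 and 1331 for WAPL-NIPBL against WAPL. Fitting the compared groups alone gave 10 in place of 16 for the PDS5AB-NIPBL effect and 2 in place of 4 for WAPL-NIPBL against WAPL; the cause was not tested. Leaving out 1 library gave 8 to 12 members called in TIR1, 36 to 40 in PDS5AB, 21 to 24 in WAPL, 9 to 13 in PDS5AB-NIPBL and 2 to 5 in WAPL-NIPBL. For untreated cells against TIR1 it gave 32 to 37 in PDS5AB, 6 to 8 in WAPL, 23 to 27 in PDS5AB-NIPBL and 12 to 15 in WAPL-NIPBL. For differences from the TIR1 effect it gave 13 to 25 in PDS5AB, 13 to 16 in WAPL, 6 to 9 in PDS5AB-NIPBL and 1 to 6 in WAPL-NIPBL. It gave 3 to 8 for PDS5AB against WAPL, 4 to 8 for PDS5AB-NIPBL against PDS5AB and 1 to 6 for WAPL-NIPBL against WAPL. Fewer samples widen the errors by construction. Low counts limit what can be seen: 31 of the 80 described members had 10 counts in every library.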
